A study of Mus musculus with 72 samples.

Results

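This section describes 28 genes of cholesterol synthesis and uptake among the 21400 gene symbols of a liver expression table. They were chosen by name, as the enzymes that build cholesterol from acetyl-CoA and the genes that sense, import, move or store sterols. By role they comprise 8 genes of the early mevalonate pathway, 11 enzymes from squalene to cholesterol, 4 genes of sterol sensing and 5 of transport and storage. Together they have 53 probes, of which 51 passed the filter on low counts. Npc1l1, whose only probe had 54 counts in all 72 libraries and 0 in 55 of them, did not pass, so 27 of the 28 genes were tested.

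Livers came from female B6C3F1 mice, a hybrid strain used in toxicity studies, aged 9 to 11 weeks and housed singly. Tertiary butyl alcohol (TBA), a solvent and fuel ingredient, was given in drinking water. There were 4 concentrations (0, 10, 20 and 40 mg/mL), each given for 14 d to 9 mice and for 28 d to another 9, which makes 8 groups, with 1 library per mouse. Animals at 0 mg/mL of the same duration were the controls, and no group carried a genetic change. RNA in scraped sections of fixed, paraffin-embedded liver was read by TempO-Seq, in which pairs of oligos that bind a chosen transcript are joined and counted.

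Cholesterol is made in the endoplasmic reticulum from acetyl-CoA by way of mevalonate, the isoprenoid farnesyl diphosphate and the hydrocarbon squalene. When sterols are scarce, the escort protein Scap carries the precursor of the transcription factor encoded by Srebf2 to the Golgi, where it is cut and released to switch on the genes of synthesis. When sterols are plentiful, Insig proteins hold Scap back. The liver is a main site of this synthesis and also clears cholesterol from blood and turns it into bile acids.

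The 71 libraries used held 7765545 to 12682075 counts. Replicate 5 at 40 mg/mL for 14 d held 10796 and was left out, so that group has n = 8. Trimmed mean of M values (TMM) factors, which adjust library sizes for differences in composition, were 0.847 to 0.961 in the 14 d controls and 0.978 to 1.58 at 40 mg/mL for 14 d, without overlap. Replicates 1 and 7 of that dosed group had the highest factors there. For the cholesterol genes, calls by the most abundant probe are given below with and without these 2 libraries. Calls of cell type markers and of further gene lists are given only with them. All 7 hepatocyte markers looked up in this liver series were detected and tested, and replicate numbers follow accession order and only name animals. Levels are CPM, that is, counts scaled to a common library total after TMM adjustment, and since probes differ in efficiency they are compared between groups and not between genes.

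At 40 mg/mL for 14 d, 4 of the 27 tested genes differed from control in edgeR's quasi-likelihood test at an adjusted p under 0.05, against 6.85% of all 11784 genes tested (3% higher and 3.84% lower). Mvd, the decarboxylase that makes isopentenyl diphosphate, and Lss, the synthase that folds epoxidized squalene into lanosterol, were higher. Ebp, a sterol isomerase late in the pathway, and Scarb1, the receptor through which liver takes cholesterol esters from HDL, were lower. The estimates lay on both sides of 0: the median log2 fold change (log2FC) was 0.03 over the 27 genes and 0.05 over all genes, and 15 of the 27 estimates lay above 0. Of the 19 synthesis enzymes 2 were higher, 1 was lower and 16 did not pass, with a median log2FC of 0.20.

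**Figure D1:**
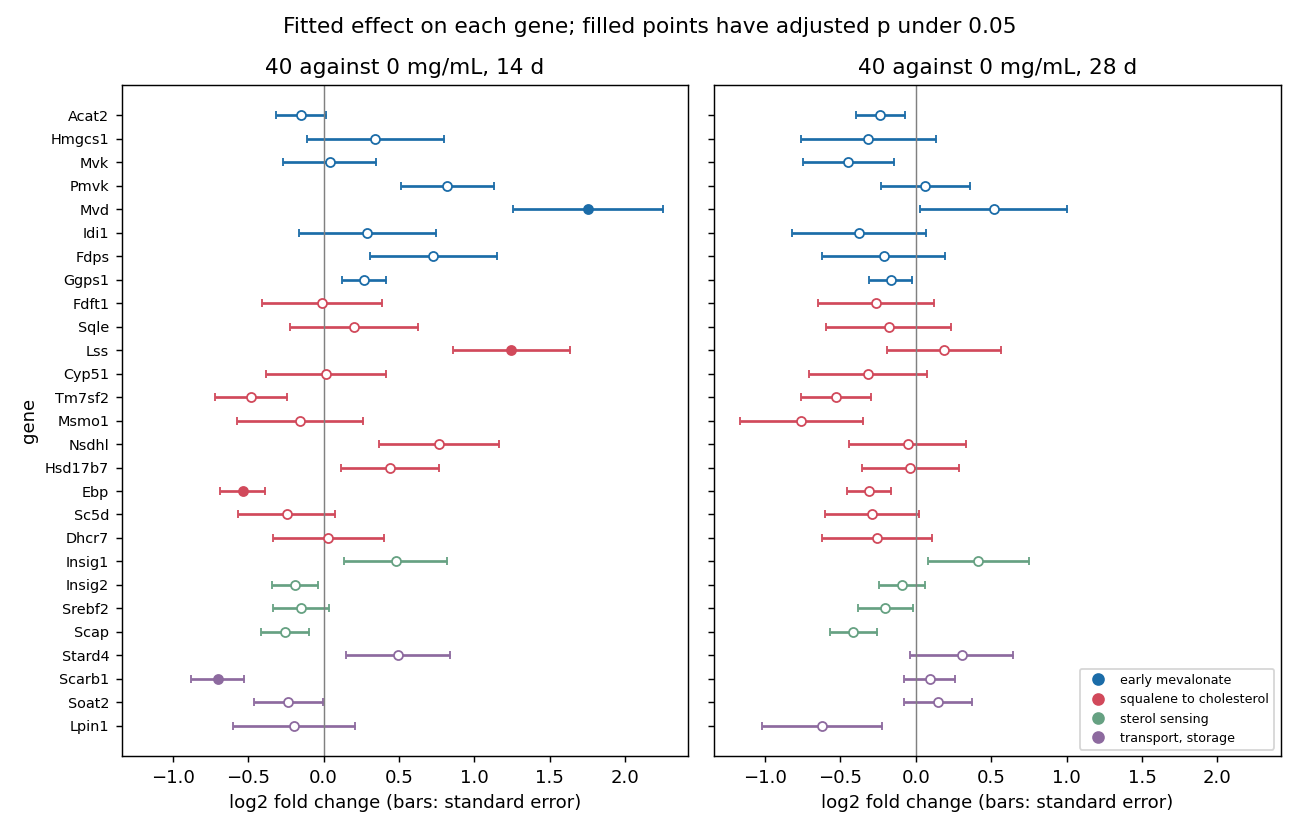
Fitted log2 fold change of each of the 27 tested genes at 40 mg/mL against 0 mg/mL for 14 d (left) and 28 d (right). Points are estimates, bars are standard errors, colours are roles, and filled points have an adjusted p under 0.05; the 4 filled points are Mvd, Lss, Ebp and Scarb1 at 14 d, and no point is filled at 28 d.

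Mvd ranged from 0.364 to 5.92 CPM in 14 d controls (median 2.03) and from 1.73 to 19.0 CPM at 40 mg/mL (median 7.30). The highest dosed animals were replicates 9 and 1, and the groups overlapped, with 4 of 8 dosed animals above every control. The fitted difference was 3.37-fold (log2FC 1.75, SE 0.50, adjusted p = 0.0205, edgeR). Lss ranged from 29.6 to 63.8 CPM in controls (median 51.0) and from 22.5 to 348 CPM at 40 mg/mL (median 87.2). Here 7 of 8 dosed animals lay above every control, and replicate 2 lay below all of them. The fitted difference was 2.37-fold (log2FC 1.24, SE 0.39, adjusted p = 0.0383, edgeR). Mvd lost its call without dosed replicate 1 (log2FC 1.48, adjusted p = 0.0837) or 9 (log2FC 1.49, adjusted p = 0.0660) by edgeR. Lss lost its call in 11 of 17 fits that each left out 1 library (control replicates 1, 2, 3, 4, 5, 6, 7 and 9 and dosed replicates 1, 8 and 9), and without dosed replicate 9 its log2FC was 0.75 (adjusted p = 0.284).

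Ebp ranged from 66.1 to 123 CPM in 14 d controls (median 77.7) and from 37.5 to 77.2 CPM at 40 mg/mL (median 52.9). The dosed animals fell into 4 at 37.5 to 42.9 CPM, below every control, and 4 at 63.0 to 77.2 CPM, of which replicate 7 was also below every control. The fitted level was 1.45-fold lower (log2FC -0.54, SE 0.15, adjusted p = 0.0172, edgeR), and the call was lost without control replicate 1 (adjusted p = 0.0562) or dosed replicate 1 (0.0650), with the log2FC between -0.62 and -0.46 over 17 fits that each left out 1 library. Scarb1 ranged from 107 to 138 CPM in controls (median 124) and from 53.0 to 135 CPM at 40 mg/mL (median 76.2). In 7 of 8 dosed animals it was below every control, and replicate 4 alone lay within the control range. The fitted level was 1.63-fold lower (log2FC -0.70, SE 0.18, adjusted p = 0.00743, edgeR), and the call held without each library in turn (17 fits, highest adjusted p 0.0300).

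**Figure D2:**
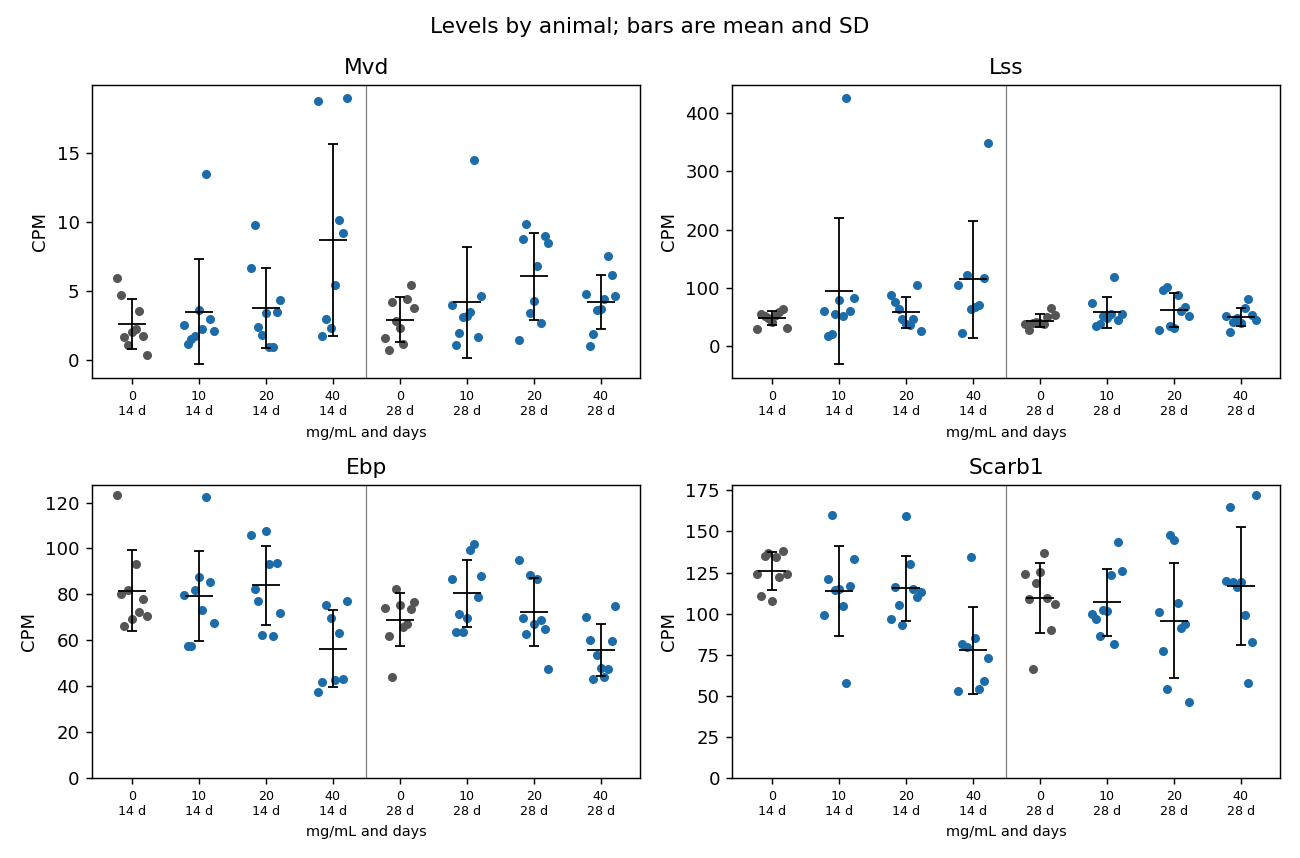
CPM of Mvd, Lss, Ebp and Scarb1 in each animal of the 8 groups (controls grey, dosed blue), with horizontal marks at group means and bars of 1 SD. At 40 mg/mL for 14 d the dosed animals overlap the controls in every panel, and single animals of other groups reach 425 CPM (Lss) or 14.5 CPM (Mvd).

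None of the 4 calls held when the log2 TMM factor entered the edgeR fit as a covariate, where Mvd had a log2FC of 1.09 (adjusted p = 0.322), Lss 1.32 (0.0825), Ebp -0.32 (0.298) and Scarb1 -0.29 (0.382). None held without replicates 1 and 7 either (adjusted p 0.193, 0.0815, 0.107 and 0.111 in the same order). Since TMM factors did not overlap between the 14 d controls and this dosed group, the covariate fit cannot separate dose from library composition. Of 7 hepatocyte markers 4 were lower and 0 higher in the same comparison, where 3.84% of all genes were lower and 3% higher. Their summed level was 32956 to 49361 CPM in 14 d controls and 8266 to 35420 CPM at 40 mg/mL. Over the same groups, summed markers were 125 to 177 and 47.9 to 204 CPM for Kupffer cells, 275 to 327 and 202 to 299 CPM for endothelium, 119 to 169 and 74.8 to 177 CPM for stellate cells, and 11.5 to 25.9 and 8.88 to 22.9 CPM for bile duct cells. Calls among these were 0 of 6, 1 of 6 (Oit3, lower), 1 of 7 (Reln, lower) and 0 of 3 tested, against the same shares of all genes, and lymphocyte markers (4.88 to 18.4 against 3.39 to 9.80 CPM) and neutrophil markers (13.8 to 37.7 against 9.14 to 49.1 CPM) had 0. The summed fat cell list was 734 to 1189 CPM in controls and 51.0 to 844 CPM at 40 mg/mL, with 0 of 2 tested genes called. Its gene Car3, also abundant in liver, had a log2FC of -1.07 (SE 0.42, adjusted p = 0.129, edgeR), while Adipoq, Plin1 and Lep had at most 6, 7 and 0 counts in any library. The part of library composition and of cell makeup in these results was not tested, and in bulk tissue fewer cells of a type and less RNA per cell cannot be told apart.

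Genes with several probes did not always give 1 answer. Acat2 encodes a thiolase that joins acetyl-CoA units at the start of the pathway. Its most abundant probe had a log2FC of -0.15 (SE 0.17, adjusted p = 0.702), while Acat2_70667 ranged from 42.3 to 68.1 CPM in controls and 32.0 to 187 CPM at 40 mg/mL and passed with a log2FC of 1.00 (SE 0.29, adjusted p = 0.0262, edgeR). The call of Acat2_70667 was lost in 4 of 11 alternative fits. It was also lost in 5 of 17 fits that each left out 1 library (highest adjusted p 0.0961, edgeR). The third probe, Acat2_29872, ranged from 13.4 to 34.9 CPM in controls and 14.0 to 72.6 CPM at 40 mg/mL, with 7 of 8 dosed animals above every control, and did not pass (log2FC 0.95, SE 0.33, adjusted p = 0.0665). For Scarb1, Scarb1_70117 was also lower (log2FC -0.82, SE 0.21, adjusted p = 0.00789) and Scarb1_29696 did not pass (-0.19, SE 0.24, adjusted p = 0.746). The call of Scarb1_70117 was lost in 3 of 11 alternative fits and in 0 of 17 that each left out 1 library. The other probe of Ebp did not pass (Ebp_30366, log2FC -0.23, SE 0.20, adjusted p = 0.616), nor did the other probe of Lss (Lss_31472, log2FC 0.98, SE 0.46, adjusted p = 0.224).

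Among the other early enzymes, none of 7 passed by its most abundant probe. Pmvk, which adds the second phosphate to mevalonate, ranged from 155 to 270 CPM in controls and 81.8 to 562 CPM at 40 mg/mL, with 6 of 8 animals above every control and replicate 2 below all of them. Its log2FC of 0.82 (SE 0.31) gave an adjusted p of 0.0969 by edgeR. Fdps, the synthase of farnesyl diphosphate, showed the same layout (log2FC 0.73, SE 0.42, adjusted p = 0.361, 6 of 8 above). Hmgcs1, which makes HMG-CoA, ranged from 25.7 to 131 CPM in controls and 13.9 to 188 CPM at 40 mg/mL (log2FC 0.34, SE 0.45, adjusted p = 0.766). Idi1, the isomerase of isopentenyl diphosphate, had a log2FC of 0.29 (SE 0.46), Ggps1, a synthase of the longer isoprenoid of protein prenylation, 0.27 (SE 0.15), and the mevalonate kinase Mvk 0.04 (SE 0.31).

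From squalene onward, 8 further enzymes and Tm7sf2 did not pass. Tm7sf2, a sterol reductase, ranged from 109 to 150 CPM in controls and 41.8 to 150 CPM at 40 mg/mL, with 6 of 8 animals below every control (log2FC -0.48, SE 0.24, adjusted p = 0.254). Nsdhl, a dehydrogenase in removal of the sterol C4 methyl groups, was above every control in 5 of 8 (log2FC 0.77, SE 0.40, adjusted p = 0.289). The squalene synthase Fdft1 (-0.01, SE 0.40), the squalene epoxidase Sqle (0.20, SE 0.43), the lanosterol demethylase Cyp51 (0.01, SE 0.40) and the last-step reductase Dhcr7 (0.03, SE 0.37) had log2FC near 0 with wide errors. Msmo1, the methylsterol oxidase, had -0.15 (SE 0.42), Sc5d, a sterol desaturase, -0.25 (SE 0.32), and Hsd17b7, a ketoreductase, 0.44 (SE 0.32).

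The 4 sterol-sensing genes did not pass at 40 mg/mL for 14 d. Insig1, which retains Scap, ranged from 55.1 to 125 CPM in controls and 52.8 to 177 CPM at 40 mg/mL (log2FC 0.48, SE 0.34, adjusted p = 0.492). Its relative Insig2 had a log2FC of -0.19 (SE 0.15), Srebf2 -0.15 (SE 0.19) and Scap -0.26 (SE 0.16). Beside Scarb1, 3 tested genes of transport and storage did not pass. They were the sterol carrier Stard4 (log2FC 0.49, SE 0.34), the cholesterol esterifying enzyme Soat2 (-0.24, SE 0.23) and Lpin1, a phosphatidate phosphatase that also acts as a coregulator of transcription (-0.20, SE 0.41).

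The lower doses gave no calls among the 27 genes. At 10 mg/mL for 14 d the count was 0 (0% of all genes called; at an unadjusted p under 0.05, 2 members, Insig2 at -0.40 and Lss at 0.97, and 4.45% of all genes), and at 10 mg/mL for 28 d it was 0 (0% of all genes; unadjusted, 1 member, Stard4 at 0.70, and 4.40% of all genes). At 20 mg/mL for 14 d it was 0 (0.0424% of all genes; unadjusted, 2 members and 6.22% of all genes), and at 20 mg/mL for 28 d 0 (0.195% of all genes; unadjusted, 2 members and 16.0% of all genes). These 4 comparisons by edgeR also gave 0 calls by DESeq2 and limma. Lpin1 had the smallest p at 20 mg/mL in both durations. It ranged from 50.4 to 462 CPM in 14 d controls and 20.1 to 127 CPM at 20 mg/mL (log2FC -1.44, SE 0.40, adjusted p = 0.318), and from 52.9 to 215 CPM and 25.7 to 75.0 CPM at 28 d (log2FC -1.06, SE 0.40, adjusted p = 0.182).

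At 40 mg/mL for 28 d, 0 of 27 genes passed in edgeR, against 0.00849% of all genes. At an unadjusted p under 0.05 there were 3 members and 6.79% of all genes. DESeq2 also gave 0 and limma gave 1, Scap. The median log2FC was -0.21 over the members and 0.02 over all genes, and 20 of 27 estimates lay below 0. Scap ranged from 84.7 to 156 CPM in controls and 48.8 to 118 CPM at 40 mg/mL (log2FC -0.41, SE 0.16, adjusted p = 0.582). Tm7sf2 had a log2FC of -0.53 (SE 0.23, adjusted p = 0.701) and Ebp -0.31 (SE 0.14, adjusted p = 0.759). Scarb1, lower at 14 d, ranged from 66.4 to 137 CPM in controls and 57.7 to 172 CPM at 40 mg/mL here (log2FC 0.09, SE 0.17, adjusted p = 0.981).

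The difference of the 40 mg/mL effect between durations gave 0 calls among the members and 0% over all genes by edgeR, with 2 members and 6.36% of all genes at an unadjusted p under 0.05, and 0 by DESeq2 and limma. Scarb1 had the smallest p there (28 d minus 14 d, 0.79 on the log2 scale, SE 0.24, adjusted p = 0.323), so the contrast between its 14 d and 28 d effects is not established. Controls at 28 d against controls at 14 d gave 0 calls among members and 0% over all genes, with 0 members and 3.01% of all genes at an unadjusted p under 0.05, and 0 by DESeq2 and limma.

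A linear trend over doses, which shares its animals with the comparisons above, called 3 of 27 genes at 14 d against 8.44% of all genes (3.83% higher and 4.61% lower). Per 10 mg/mL, Mvd was higher (log2 slope 0.43, SE 0.12, adjusted p = 0.0116) and Scarb1 (-0.17, SE 0.04, adjusted p = 0.00593) and Ebp (-0.13, SE 0.04, adjusted p = 0.0120) were lower, by edgeR. These 3 calls too were lost with the TMM covariate (adjusted p 0.380, 0.441 and 0.333) and without replicates 1 and 7 (0.180, 0.119 and 0.104). At 28 d the trend called 0 of 27 (0.144% of all genes; at an unadjusted p under 0.05, 5 members and 8.32% of all genes; 0 by DESeq2, 3 by limma), with Scap at -0.11 per 10 mg/mL (SE 0.04, adjusted p = 0.295).

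Within groups, most of the synthesis enzymes varied widely between animals. The standard deviation of log2 CPM within groups had a median of 0.87 over the 19 synthesis enzymes and 0.37 over the 7464 genes with a mean of at least 5 CPM, and 17 of the 19 lay above the latter. It was 1.10 for Idi1, 1.05 for Hmgcs1, 1.01 for Fdps and 1.00 for Sqle; 99.2% of the 7464 genes varied less than Idi1. Ebp (0.31) and Ggps1 (0.29) varied least among the enzymes. Insig1 (0.83) and Lpin1 (0.82) also varied widely, while Insig2 (0.33), Scap (0.35), Scarb1 (0.38) and Srebf2 (0.42) did not.

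**Figure D3:**
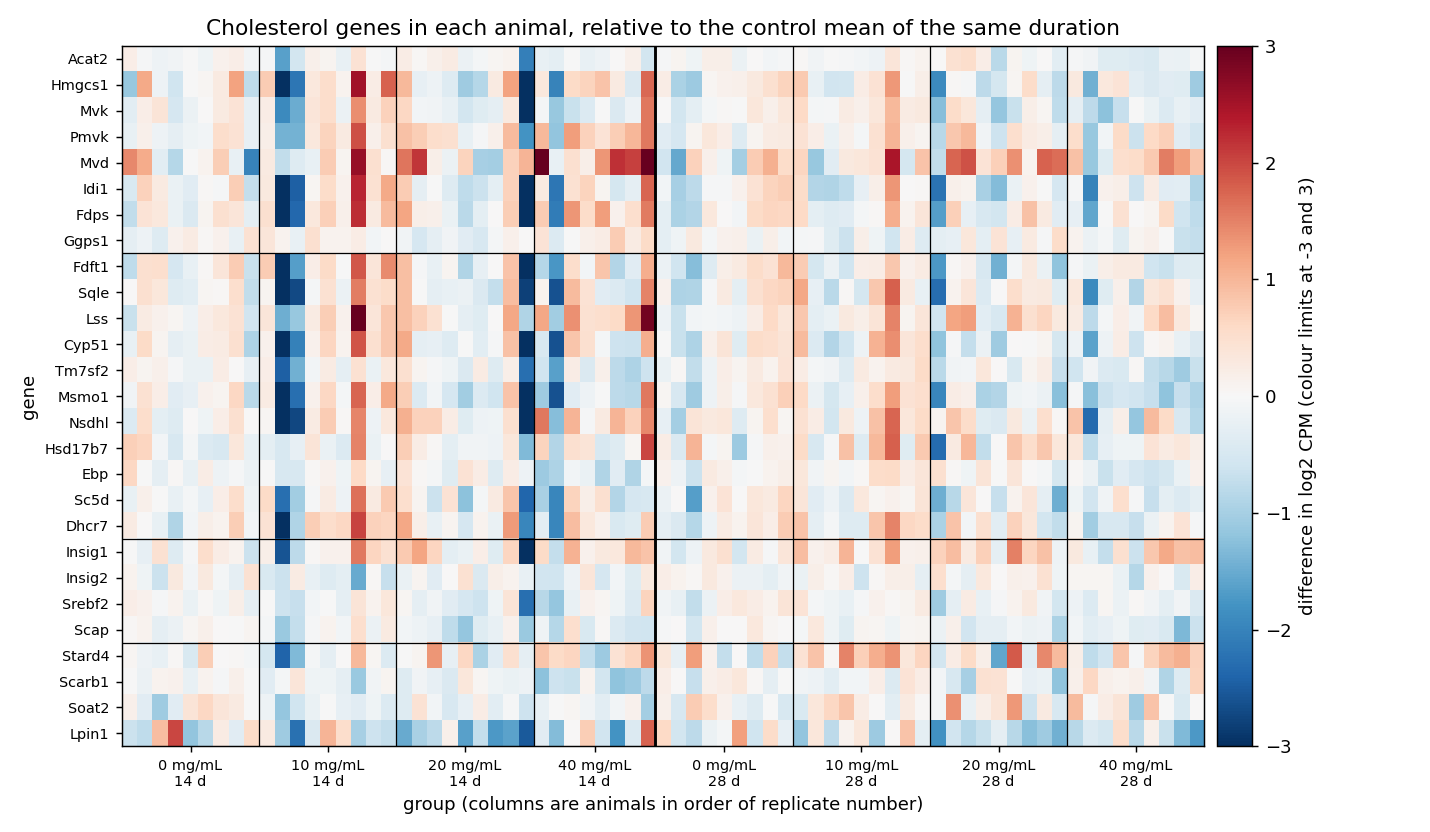
Difference in log2 CPM from the control mean of the same duration, for 27 genes (rows, by role) in 71 animals (columns, by group and replicate number). Blue columns, where most enzymes are low together, appear at 10 mg/mL for 14 d (replicates 2 and 3), 20 mg/mL for 14 d (replicate 9) and 40 mg/mL for 14 d (replicate 2); red columns appear at 10 mg/mL (replicate 7) and 40 mg/mL (replicate 9) for 14 d.

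In single animals, mostly at 14 d, nearly the whole pathway was low or high at once. The median difference of the 19 enzymes from the 14 d control mean was -2.44 (log2) in replicate 2 and -1.45 in replicate 3 of the 10 mg/mL group, -2.37 in replicate 9 of the 20 mg/mL group and -1.62 in replicate 2 of the 40 mg/mL group. In these animals 16, 16, 16 and 18 of the 19 enzymes lay below all 9 controls. Replicate 7 at 10 mg/mL stood at 1.74, with 17 enzymes above all controls, and replicate 9 at 40 mg/mL at 1.48, with 15 above and 3 below. At 28 d the animals beyond 1 log2 unit were replicate 7 at 10 mg/mL (1.25), replicate 1 at 20 mg/mL (-1.20) and, of the 40 mg/mL group, replicate 2 (-1.03). Replicate 7 at 10 mg/mL had 15 enzymes above all 28 d controls and 1 below. Replicate 1 at 20 mg/mL had 13 below and 1 above, and replicate 2 at 40 mg/mL had 11 below.

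**Figure D4:**
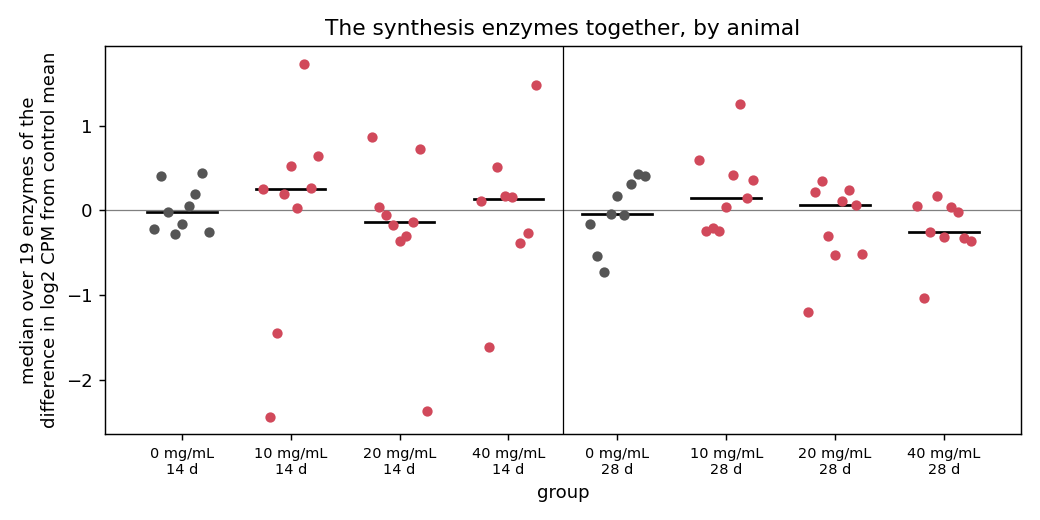
Median over the 19 synthesis enzymes of the difference in log2 CPM from the control mean of the same duration, 1 point per animal (controls grey, dosed red), with lines at group medians. Points at 14 d run from -2.44 to 1.74 in dosed animals and from -0.28 to 0.44 in controls, while the group medians stay between -0.25 and 0.26 in all 8 groups.

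Hmgcs1 shows the scale of these differences. At 14 d it was 3.83 CPM in replicate 2 at 10 mg/mL, 5.91 CPM in replicate 9 at 20 mg/mL and 327 CPM in replicate 7 at 10 mg/mL, against 25.7 to 131 CPM in controls. Idi1 was 12.9, 6.41 and 903 CPM in the same animals, against 112 to 311 CPM in controls, and Msmo1 was 32.8, 35.1 and 1621 CPM, against 277 to 754 CPM. Insig1, itself switched on by the factor from Srebf2, was 14.1, 4.70 and 261 CPM, against 55.1 to 125 CPM. Hmgcs1, Idi1 and Msmo1 are among the 19 enzymes whose median picked out these animals, so their direction there follows largely from that choice. Insig1 is not among the 19, and it too was below every control in the first 2 animals and above every control in the last.

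Animals beyond 1 log2 unit numbered 9 of 53 dosed and 0 of 18 controls, and 6 of the 9 were at 14 d. The SD of the per-animal median was 0.28 in 14 d controls, 1.22 at 10 mg/mL, 0.93 at 20 mg/mL and 0.88 at 40 mg/mL; at 28 d it was 0.41, 0.49, 0.51 and 0.36 in the same order. These spreads are descriptions, without a test of whether dosed animals varied more. The 6 low animals, in the order 10 mg/mL for 14 d (replicates 2 and 3), 20 mg/mL for 14 d and 28 d, and 40 mg/mL for 14 d and 28 d, had TMM factors of 1.26, 0.868, 1.26, 1.30, 1.39 and 0.831. Their summed hepatocyte markers were 20829, 36605, 22410, 13465, 10122 and 47213 CPM. The 3 high animals (10 mg/mL for 14 d and 28 d, and 40 mg/mL for 14 d) had factors of 0.864, 1.01 and 1.12 and sums of 33605, 24973 and 23130 CPM. Other cell types' markers also differed in some of these animals, given in the same orders. Kupffer markers summed to 40.5, 91.4, 78.1, 118, 120 and 145 CPM in the low animals and 83.6, 158 and 47.9 CPM in the high ones, against 125 to 177 CPM in 14 d and 103 to 144 CPM in 28 d controls. Endothelial markers summed to 181, 256, 166, 229, 274 and 289 CPM and to 251, 263 and 217 CPM, against 275 to 327 and 252 to 306 CPM. The fat cell list, mostly Car3, summed to 30.3, 102, 78.2, 904, 642 and 279 CPM and to 957, 1166 and 51.0 CPM, against 734 to 1189 and 715 to 1264 CPM. Of the low animals at 14 d, all 4 were thus below the controls in Kupffer, endothelial and fat cell sums, as was the high animal at 40 mg/mL, and the high animal at 10 mg/mL for 14 d was below them in Kupffer and endothelial sums. Stellate markers summed to 84.3, 95.5, 107, 88.5, 99.1 and 137 CPM and to 113, 159 and 74.8 CPM, against 119 to 169 and 96.8 to 142 CPM. All the low and high animals at 14 d were thus below the controls in stellate sums too. Neutrophil markers summed to 8.67, 9.48, 4.48, 20.8, 38.6 and 23.2 CPM and to 8.18, 29.0 and 9.14 CPM, against 13.8 to 37.7 and 11.4 to 46.5 CPM. At 14 d the low animals at 10 and 20 mg/mL and the high ones were below the controls, and the low one at 40 mg/mL above. In the low and the high animals, bile duct markers summed to 4.27 to 23.3 and 8.88 to 18.4 CPM (14 d controls 11.5 to 25.9, 28 d 16.1 to 22.0). Lymphocyte markers summed to 2.24 to 11.8 and 3.39 to 8.59 CPM (4.88 to 18.4, 3.59 to 14.9). The part of these measures was not tested.

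To describe which genes varied together, deviations of each animal from its group mean were correlated with those of Hmgcs1, picked after the data had been seen as an enzyme with wide spread. Over 71 animals, 17 of the other 18 synthesis enzymes had a positive correlation at an adjusted p under 0.05 (permutation within groups, 100000 draws, two-sided, 88 relations). The 88 also held lists of genes around the pathway, described below. Positive at that threshold were 7 of 7 for fatty acid synthesis (median r 0.37) and 7 of 8 for acetyl-CoA or electron supply (0.52). Counts were 3 of 6 for bile acid synthesis, 4 of 10 for Srebf processing or degradation and 3 of 12 for sterol traffic. For sterol efflux the count was 2 of 9 and for other mevalonate products 0 of 10. Bile acid, Srebf, traffic and mevalonate product lists each had 1 negative. The median r of the 18 enzymes was 0.83. Pearson's r was 0.94 for Idi1 (Spearman's rho 0.89), 0.94 for Msmo1 (0.88), 0.93 for Fdps (0.85), 0.93 for Fdft1 (0.88), 0.91 for Cyp51 (0.81) and 0.89 for Sqle (0.77), each with an adjusted p of 4.19e-05 (Pearson) and 4.63e-05 (Spearman), set by the smallest p the draws can give, 1e-05. Without the 2 animals farthest from the median of Hmgcs1, replicates 2 at 10 mg/mL and 9 at 20 mg/mL for 14 d, these r were 0.93, 0.91, 0.90, 0.89, 0.87 and 0.85. For these enzymes the relation therefore did not rest on those 2 animals alone. Other animals in which the enzymes were low or high together were kept.

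**Figure D5:**
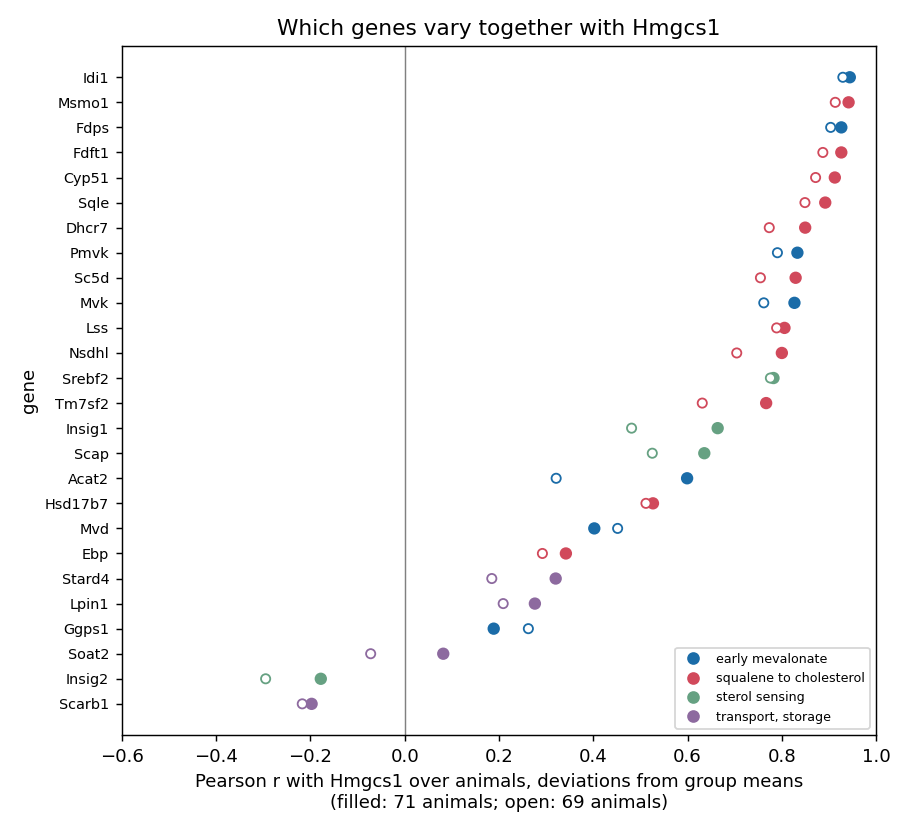
Pearson r of each gene with Hmgcs1 over animals, from deviations of log2 CPM from group means, coloured by role. Filled points use 71 animals and open points leave out the 2 animals farthest from the median of Hmgcs1; Idi1 stands at the top (0.94) and Scarb1 at the bottom (-0.20).

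The correlation was weaker for a few genes. Ggps1, whose product leads to prenylation and not to sterols, had an r of 0.19 (rho 0.13, adjusted p = 0.154 for r and 0.374 for rho), Ebp 0.34 (rho 0.29, 0.0187 and 0.0412) and Mvd 0.40 (rho 0.33, 0.00259 and 0.0180). Acat2 had 0.60, and 0.32 without the 2 farthest animals. Among the sensing genes, Srebf2 had an r of 0.78 (rho 0.74, 4.19e-05 and 4.63e-05) and Insig1 0.66 (rho 0.41, 7.65e-05 and 0.00214), with 0.78 and 0.48 without the 2 animals. Insig2 had -0.18 (rho -0.15, 0.328 and 0.295), and Scarb1 -0.20 (rho -0.15, 0.173 and 0.278). By duration, the median r of the 18 enzymes was 0.89 over 35 animals at 14 d and 0.67 over 36 at 28 d. The range was 0.26 to 0.96 at 14 d and 0.11 to 0.92 at 28 d. At 14 d and 28 d in turn, r was 0.71 and 0.12 for Acat2 and 0.78 and 0.21 for Insig1. It was 0.79 and 0.77 for Srebf2 and 0.95 and 0.92 for Idi1. The labels give no batch within which to repeat these correlations.

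Between the 19 enzymes, the median r over 171 pairs was 0.69, and 70.8% of pairs exceeded 0.5, against 3.03% of all pairs of genes with at least 5 CPM (median 0.01). In the 18 controls alone the median was 0.48 and in the 53 dosed animals 0.73. It was 0.60 in the 59 libraries with a TMM factor up to 1.2. Deviations of Hmgcs1 also went with the log2 TMM factor (r -0.39, rho -0.30; permutation adjusted p = 0.00184 and 0.0256; r -0.25 without the 2 farthest animals) and with the summed hepatocyte markers (r 0.38, rho 0.38; permutation adjusted p = 0.00068 and 0.00664; r 0.33). Of the other measures among the 4 compared, Car3, an abundant liver and fat gene, had r 0.42 (rho 0.20; permutation adjusted p = 0.0223 and 0.170; r 0.09 without the 2 animals), and the log2 total count r 0.11 (rho 0.16; 0.376 and 0.199; r 0.24). The part of these measures in the shared variation was not tested.

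Promoters of the genes that varied together are shown with the letters bound by the factors known to act at sterol-regulated genes. RefSeq windows of 250 bases before the start (GRCm38.p6) were found for 22 of the 28 genes, not for Fdps, Fdft1, Sqle, Stard4, Soat2 and Scarb1. Capitals mark TCACNCCAC, a form of the sterol regulatory element, CCAAT, the letters bound by NF-Y, and GGGCGG, the letters bound by Sp1, each on either strand. Shown are Hmgcs1 (chr13:119690101-119690350 (+ strand)), its closest followers with a window, Idi1 (chr13:8885356-8885605 (+ strand)) and Msmo1 (chr8:64733579-64733828 (- strand)), then Mvd (chr8:122443423-122443672 (- strand)), higher at 40 mg/mL, and Insig2 (chr1:121332590-121332839 (- strand), the first of its 3 windows), which had no positive correlation with Hmgcs1. All run 5′ to 3′ on the gene's strand.
Hmgcs1: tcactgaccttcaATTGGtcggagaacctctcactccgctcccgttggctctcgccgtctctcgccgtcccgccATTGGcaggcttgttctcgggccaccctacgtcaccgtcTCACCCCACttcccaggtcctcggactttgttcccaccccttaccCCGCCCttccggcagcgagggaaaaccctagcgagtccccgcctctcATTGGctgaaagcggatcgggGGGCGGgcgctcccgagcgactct
Idi1: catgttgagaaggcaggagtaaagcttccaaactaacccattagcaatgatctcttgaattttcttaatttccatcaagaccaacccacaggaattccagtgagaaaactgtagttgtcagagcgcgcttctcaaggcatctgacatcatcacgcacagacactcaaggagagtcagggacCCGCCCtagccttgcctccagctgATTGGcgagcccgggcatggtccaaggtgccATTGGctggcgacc
Msmo1: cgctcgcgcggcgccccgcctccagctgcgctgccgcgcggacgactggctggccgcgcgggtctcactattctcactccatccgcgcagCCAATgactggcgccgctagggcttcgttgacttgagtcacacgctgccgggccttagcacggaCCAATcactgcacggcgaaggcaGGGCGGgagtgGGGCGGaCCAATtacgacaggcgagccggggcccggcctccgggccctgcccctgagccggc
Mvd: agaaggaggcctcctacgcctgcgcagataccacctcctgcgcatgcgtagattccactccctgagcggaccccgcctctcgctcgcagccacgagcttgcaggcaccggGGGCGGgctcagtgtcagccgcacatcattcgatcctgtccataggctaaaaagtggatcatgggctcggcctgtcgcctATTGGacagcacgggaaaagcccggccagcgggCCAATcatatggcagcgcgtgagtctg
Insig2: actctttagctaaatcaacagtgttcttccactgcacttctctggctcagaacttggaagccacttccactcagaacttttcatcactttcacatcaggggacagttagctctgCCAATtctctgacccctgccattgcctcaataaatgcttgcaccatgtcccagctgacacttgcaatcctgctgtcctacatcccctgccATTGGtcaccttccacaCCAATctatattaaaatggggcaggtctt

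TCACNCCAC was found in 1 of the 22 genes, Hmgcs1, where it begins 137 bases before the start, and in 1.22% of all 27025 genes of the table. CCAAT was present in 19 of 22 genes, against 37.5% of all genes, and GGGCGG in 18 of 22, against 35.4%. These shares cover all genes of the table, whether detected in liver or not, and were not matched for base composition or tested. Insig2 counts for GGGCGG through another of its 3 windows, and the printed one holds 0. The windows printed hold CCAAT 3 times in Hmgcs1, 2 in Idi1, 3 in Msmo1, 2 in Mvd and 3 in Insig2. CCAAT thus occurs in genes that followed Hmgcs1 and in Insig2, which did not. A match is a run of letters and not a bound site, and the windows were not compared with any binding data.

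Genes around the pathway were counted from further lists at 40 mg/mL for 14 d, where 3% of all genes were higher and 3.84% lower, so that a single call in a list of this size is no result about the list. Calls in these lists were not looked up without replicates 1 and 7 or with the TMM covariate, where the calls above were lost. Of 8 genes that supply acetyl-CoA or electrons, 1 was higher, Acly, which makes cytosolic acetyl-CoA (log2FC 1.68, SE 0.39, adjusted p = 0.00384), and 7 did not pass. Of 7 genes of fatty acid synthesis, which use the same acetyl-CoA, all 7 were higher (median log2FC 1.67), with Elovl6, an elongase, at 2.23 (SE 0.44, adjusted p = 0.000859) and Acaca, the carboxylase, at 1.46 (SE 0.27, adjusted p = 0.000367). The 10 genes of other mevalonate products had 0 calls by edgeR (1 at an unadjusted p under 0.05). Of 10 genes that process the Srebf precursor or degrade sterol-regulated proteins 1 was lower, the protease gene Mbtps2 (-0.48, SE 0.16, adjusted p = 0.0469), and of 9 genes of sterol efflux and of the sterol receptors LXR and their targets 1 was lower, the exporter Abca1 (-0.48, SE 0.13, adjusted p = 0.0140). Of 12 genes of intracellular sterol traffic 1 was lower, Npc1 of the lysosome (-0.93, SE 0.30, adjusted p = 0.0469). Of 6 genes of bile acid synthesis 3 were lower, among them Cyp7b1, an oxysterol hydroxylase (-1.68, SE 0.33, adjusted p = 0.00074), and Hsd3b7 (-0.64, SE 0.14, adjusted p = 0.00242). At 40 mg/mL for 28 d, where 0.00849% of all genes were called, each of these 7 lists had 0 calls by edgeR. The fatty acid genes then had a median log2FC of 0.96 with 6 of 7 at an unadjusted p under 0.05, the bile acid genes -0.42 with 4 of 6, and the other 5 lists had 0 or 1 such gene each.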

How the data were processed

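RNA from liver of 72 mice was read by TempO-Seq and demultiplexed and aligned with bcl2fastq 2.20 and Bowtie, per the submitters' processing notes. The genome build was not given in the sources used here. The authors deposited raw read counts per probe (30146 probes), 1 library per animal. The members and gene lists were chosen with earlier results of these data known.

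Groups came from the labels. The library under 100000 counts was left out, and probes were filtered with filterByExpr (17050 tested). edgeR 4.0.16 in R 4.3.3 fitted 1 mean per group over 71 libraries, with TMM scaling and robust quasi-likelihood tests. P-values were adjusted by Benjamini-Hochberg over all probes, with a threshold of 0.05. The SE is the size of the log2FC divided by the square root of the F statistic. Each gene was read by its most abundant probe, and probes whose call differed are named. All 28 members are named, and up to 2 genes of each further list by smallest p. Log2 CPM used a prior count of 2. DESeq2 1.42.0, limma 3.58.1 and 12 alternatives in all were run, besides leaving out libraries in turn. Correlations used Python 3.11.15 and scipy 1.17.1.

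Depth was 7765545 to 12682075 counts per library, and CPM of low genes such as Mvd rest on few reads. Of 280 pairs within groups 0 were identical, and the smallest chi-square per degree of freedom was 5.6, so none was treated as a repeat. Labels give no batch. On simulated data for 40 mg/mL against 0 mg/mL at 14 d (16790 probes), edgeR called 50 of 65 probes changed 4-fold, 39 of 66 changed 2-fold, 16 of 67 changed 1.5-fold and 4 of 16592 left unchanged. Of the 4-fold changes it called 44 of 44 where the biological coefficient of variation was under 0.5 and 6 of 21 where it was higher. That split was chosen after the missed probes of this same simulation had been looked at.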

Additional observations from a re-analysis of the deposited data

Results flagged for a closer look

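Over 27 genes in 8 groups, 216 sets of values were examined for a single animal far from the others of its group, by Dixon's 95% limit on log2 CPM. There were 33 such values, and chance gives about 1 set in 20. Replicate 9 of the 20 mg/mL 14 d group stood apart with Acat2 at 106 CPM (others 390 to 518), Mvk at 4.42 CPM (others 28.9 to 65.4), Pmvk at 54.1 CPM (others 162 to 365), Idi1 at 6.41 CPM (others 108 to 313) and Fdps at 15.2 CPM (others 155 to 617). That animal also had Fdft1 at 25.1 CPM (others 113 to 396), Sqle at 16.7 CPM (others 72.0 to 226), Cyp51 at 4.77 CPM (others 36.0 to 103), Tm7sf2 at 26.6 CPM (others 95.0 to 179) and Msmo1 at 35.1 CPM (others 234 to 881). That animal also had Nsdhl at 5.49 CPM (others 44.2 to 119), Hsd17b7 at 4.70 CPM (others 9.86 to 20.1), Insig1 at 4.70 CPM (others 67.4 to 195) and Srebf2 at 17.3 CPM (others 54.5 to 110). The 10 mg/mL 14 d group held a distant animal, replicate 2, with Acat2 at 141 CPM (others 301 to 589) and Dhcr7 at 0.795 CPM (others 7.73 to 60.4). In the 10 mg/mL 14 d group replicate 7 had Mvd at 13.5 CPM (others 1.16 to 3.63), Lss at 425 CPM (others 16.8 to 82.2), Hsd17b7 at 34.3 CPM (others 8.53 to 15.7) and Scarb1 at 57.6 CPM (others 99.4 to 160). Replicate 2 of the 40 mg/mL 14 d group stood apart with Pmvk at 81.8 CPM (others 250 to 562), Fdps at 63.2 CPM (others 299 to 807) and Cyp51 at 7.54 CPM (others 29.7 to 100). The 40 mg/mL 14 d group held a distant animal, replicate 9, with Mvk at 127 CPM (others 19.2 to 42.3) and Soat2 at 6.71 CPM (others 11.1 to 15.0). In the 0 mg/mL 14 d group replicate 6 had Stard4 at 7.91 CPM (others 3.38 to 4.91). Replicate 3 of the 0 mg/mL 28 d group stood apart with Ebp at 43.7 CPM (others 61.6 to 82.5), Sc5d at 284 CPM (others 793 to 1405) and Scap at 84.7 CPM (others 122 to 156). The 10 mg/mL 28 d group held a distant animal, replicate 7, with Acat2 at 538 CPM (others 378 to 448). In the 20 mg/mL 28 d group replicate 1 had Sqle at 17.9 CPM (others 66.0 to 127). Replicate 2 of the 40 mg/mL 28 d group stood apart with Cyp51 at 11.5 CPM (others 23.0 to 41.2). The 40 mg/mL 28 d group held a distant animal, replicate 8, with Scap at 48.8 CPM (others 79.7 to 118). Most of these values lie in animals described above in which nearly all synthesis enzymes were low or high together, so these values are not independent of each other. Replicate 9 at 20 mg/mL for 14 d accounts for 14 of the 33.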

How the results depend on the processing

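No result changed direction. At 40 mg/mL for 14 d, the count of 2 genes higher became 1 with no filter on low counts, and 0 with the TMM covariate, with the library of low depth kept, without the 2 libraries of highest TMM factor, with the groups of the comparison alone and in limma. The count of 2 lower became 0 with the covariate and without the 2 libraries, and 1 with the low-depth library kept and with the groups alone. Leaving out 1 library in turn gave 0 to 3 higher and 1 to 2 lower at 14 d, 0 in either direction at 28 d, and 0 for the difference between durations. For the 14 d trend, 1 gene higher became 2 with a filter at 5 CPM, where Mvd is not tested, and 0 with the covariate, without the 2 libraries and in limma; 2 lower became 0 with the covariate and without the 2 libraries. For 28 d, limma gave 1 lower at 40 mg/mL and 3 lower in the trend, and the groups alone 1 lower in the trend. The cause was not tested in any of these. Over all probes, 484 were higher and 627 lower at 40 mg/mL for 14 d in edgeR, against 185 and 511 in limma and 641 and 749 in DESeq2. The median correlation between enzymes was 0.61 without the 2 farthest animals and 0.60 in libraries with a TMM factor up to 1.2, both chosen after seeing the data, against 0.69. No paired analysis was possible because the labels give no replicate numbers shared between groups. Low counts limit Mvd and Npc1l1 most.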

Other observations

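Probes of the same gene did not always vary together between animals (Pearson's r of deviations from group means, 71 animals, given as a description). The pairs stood at 0.98 for Sqle, 0.95 for Hmgcs1, 0.93 for Lpin1 (Lpin1_31736), 0.93 for Fdft1 and 0.90 for Fdps. For Ebp the other probe stood at 0.10 with a mean of 247 counts. For Scarb1, Scarb1_70117 stood at 0.75 and Scarb1_29696 at 0.01, with a mean of 66.2 counts for the latter. The lower level at 40 mg/mL for 14 d was called by both of the Scarb1 probes that varied together and not by Scarb1_29696. The Ebp call rests on 1 of its 2 probes.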
